A study of Mus musculus with 16 samples.

Results

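Red blood cells and their spleen precursors carry a set of RNAs that B cells are not known to make, chief among them those of hemoglobin. The 9 genes described here are Hbb-bs, Hbb-bt, Hba-a1, Hba-a2, Alas2, Rhag, Slc4a1, Klf1 and Ahsp. They were selected by symbol, on the basis of levels seen earlier in these same libraries, so their levels are given as a description, and where the genes called among them are counted nothing is read from the count. The table of 27928 genes holds 8 of the 9, and Ahsp was not analysed here. RNA was sequenced from follicular (FO, CD21lo CD23hi) and marginal zone (MZ, CD21hi CD23lo) B cells sorted by flow cytometry from the spleens of C57BL/6 mice 8 to 12 weeks old. WT mice were compared with Gtf2i fl/fl mice carrying a Cre that is made in B cells (cKO). Each of the 4 groups (FO and MZ of either genotype) has 2 libraries, from B cells enriched by negative selection before the sort. Nothing in the sources used here says whether the libraries of a group came from separate mice, so errors and p-values cover the spread between these libraries, which may be technical.

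Hemoglobin is a tetramer of alpha globin, made in adult mice from Hba-a1 and Hba-a2, and beta globin, made from Hbb-bs and Hbb-bt. Each chain holds a heme, whose synthesis in erythroid cells starts with the enzyme encoded by Alas2. Slc4a1 encodes band 3, the anion exchanger of the red cell membrane, and Rhag encodes the Rh-associated glycoprotein, which sits in the same membrane. Klf1 encodes a transcription factor of erythroid precursors that binds CACCC boxes, among others in the beta globin promoter. The red pulp of the mouse spleen removes old red cells and also makes new ones, so spleen suspensions can hold red cells and their precursors.

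RefSeq promoter windows were available for 7 of the 8 genes, and Slc4a1 had none. The 120 bases before the RefSeq start (GRCm38.p6) are printed 5′ to 3′ on the gene's strand for 6 of them, so that the starts of the genes that peaked in the same library can be compared. Capitals mark the letters CACCC (bound by KLF factors) and GATAA (bound by GATA factors) on either strand, so that GGGTG and TTATC are the same motifs on the other strand.
Hbb-bs, chr7:103827929-103828048, minus strand: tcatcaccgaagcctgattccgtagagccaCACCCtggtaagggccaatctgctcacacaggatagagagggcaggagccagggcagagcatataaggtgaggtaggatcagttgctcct
Hbb-bt, chr7:103813924-103814043, minus strand: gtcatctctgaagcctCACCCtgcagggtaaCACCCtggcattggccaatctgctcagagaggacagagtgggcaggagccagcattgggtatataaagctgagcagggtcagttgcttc
Hba-a1, chr11:32283552-32283671, plus strand: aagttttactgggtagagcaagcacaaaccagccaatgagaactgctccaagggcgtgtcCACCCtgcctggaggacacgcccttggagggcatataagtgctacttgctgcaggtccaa
Alas2, chrX:150547297-150547416, plus strand: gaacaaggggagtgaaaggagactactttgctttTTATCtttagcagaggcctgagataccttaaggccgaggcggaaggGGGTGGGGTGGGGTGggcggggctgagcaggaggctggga
Klf1, chr8:84901862-84901981, plus strand: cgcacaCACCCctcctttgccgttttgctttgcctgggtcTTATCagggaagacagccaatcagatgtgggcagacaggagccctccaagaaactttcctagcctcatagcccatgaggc
Rhag, chr17:40811029-40811148, plus strand: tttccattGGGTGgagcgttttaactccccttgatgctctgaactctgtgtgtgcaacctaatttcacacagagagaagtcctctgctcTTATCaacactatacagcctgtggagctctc
CACCC was found in 7 of the 7 windows and in 31.7% of the 32851 windows of the table. GATAA was found in 3 of the 7 (Alas2, Klf1 and Rhag) and in 10.5% of all windows. CCAAT, searched on both strands and not capitalized, was found in 6 of the 7 and in 21.3% of all windows, and in Rhag it overlaps the CACCC match. A match describes the letters of the window and not the binding of a factor. The windows of Hba-a1 and Hba-a2 were identical at 297 of the 297 bases compared, so Hba-a2 is not printed separately.

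The libraries held between 21546552 and 25083552 reads on genes. Gtf2i, the targeted gene, had 1992 to 2864 normalized counts in WT and 1523 to 1889 in cKO, a normalized count being the reads on a gene after division by a size factor for depth. The libraries also differ in sex-linked RNA. Xist had 25930 to 47002 in WT and 14748 in cKO FO replicate 1, but no more than 89.7 in the remaining cKO libraries. The Y-linked Ddx3y had no more than 6.34 in WT and 2682 or more in cKO. Genotype and sex-linked RNA therefore cannot be told apart here, and cKO FO replicate 1 held both. One library stood apart for the genes described here, cKO MZ replicate 1. The limma comparisons and the summed levels that use it are also given without it. DESeq2 and edgeR were run only with all 8 libraries.

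The beta globin RNAs were low in most libraries and high in cKO MZ replicate 1. Hbb-bs (ENSMUSG00000052305.6, chr7:103826534-103828096 in GENCODE on GRCm38) had 7318 and 305.2 normalized counts in cKO MZ replicates 1 and 2, 21.3 and 547.6 in cKO FO, 28.9 and 110.5 in WT MZ, and 6.99 and 79.0 in WT FO. Hbb-bt (ENSMUSG00000073940.3, chr7:103812524-103813996) had 1991 and 292.8 in cKO MZ, 39.2 and 195.3 in cKO FO, 27.0 and 113.2 in WT MZ, and 7.98 and 41.9 in WT FO. Both cKO MZ libraries were above both WT MZ libraries for both genes, while cKO FO replicate 1 lay between the WT FO libraries. The level of Hbb-bs in cKO MZ replicate 1 was 13.4 times that of the next library, cKO FO replicate 2, and that of Hbb-bt was 6.80 times that of the next, cKO MZ replicate 2. In these bulk samples a larger share of cells with such RNA and more RNA per cell cannot be told apart.

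The alpha globin RNAs were also highest in cKO MZ replicate 1. Hba-a1 (ENSMUSG00000069919.7, chr11:32283511-32284465) had 1769 and 87.6 normalized counts in cKO MZ, 8.96 and 123.8 in cKO FO, 15.4 and 42.6 in WT MZ, and 3.99 and 29.5 in WT FO. Hba-a2 (ENSMUSG00000069917.7, chr11:32296489-32297298) had 1163 and 49.5 in cKO MZ, 6.72 and 64.4 in cKO FO, 4.82 and 25.4 in WT MZ, and 0 and 11.4 in WT FO. The 0 is a count of 0 reads, which allows up to 3 reads. Both genes were highest in cKO MZ replicate 1 and second in cKO FO replicate 2, which held more than cKO MZ replicate 2.

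The genes of heme synthesis and the membrane had the same leading library, at smaller levels than the globins there. Alas2 (ENSMUSG00000025270.13, chrX:150547375-150570638) had 810.3 and 43.3 normalized counts in cKO MZ, 8.96 and 71.5 in cKO FO, 16.4 and 29.0 in WT MZ, and 6.99 and 18.1 in WT FO. It lies on the X chromosome, and the libraries differ in sex-linked RNA. Whether this bears on the level of Alas2 was not tested. Slc4a1 (ENSMUSG00000006574.15, chr11:102348824-102366203) had 1109 and 48.5 in cKO MZ, 3.36 and 64.4 in cKO FO, 3.85 and 31.7 in WT MZ, and 0.998 and 21.9 in WT FO. Rhag (ENSMUSG00000023926.8, chr17:40811126-40840754) had 64.8 and 3.09 in cKO MZ, 1.12 and 12.1 in cKO FO, 0 and 0.906 in WT MZ, and 0 and 0.951 in WT FO, so that each WT group rests on 1 read. For each of the 3 genes the second library was cKO FO replicate 2. A filter of a mean of at least 10 normalized counts left 8 of the 8 genes, but Rhag passed it through cKO MZ replicate 1 alone, with a mean of 2.59 over the other 7 libraries.

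The regulator Klf1 varied least. Klf1 (ENSMUSG00000054191.8, chr8:84901928-84905291) had 59.8 and 10.3 normalized counts in cKO MZ, 11.2 and 18.1 in cKO FO, 6.74 and 9.96 in WT MZ, and 7.98 and 13.3 in WT FO. Outside cKO MZ replicate 1 its levels stayed within 6.74 and 18.1, whereas those of Hbb-bs spanned 6.99 to 547.6.

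**Figure D1:**
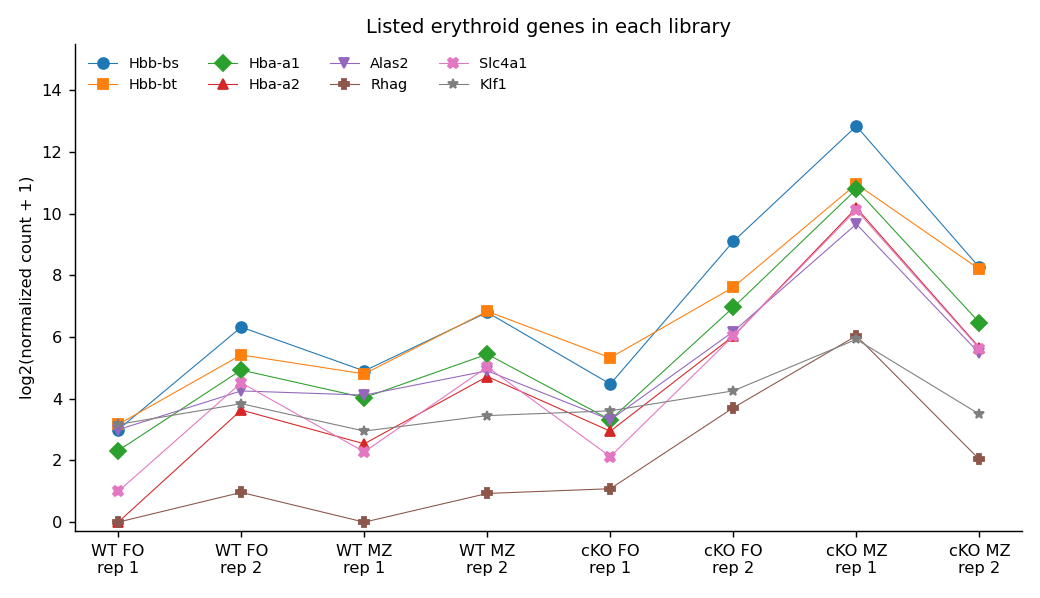
Log2(normalized count + 1) of the 8 listed genes in the 8 libraries, with each marker a gene and lines joining the points of a gene for reading only. Every gene peaks in cKO MZ replicate 1, where Hbb-bs reaches 7318 normalized counts, and in the other 3 groups replicate 2 lies above replicate 1.

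The spread between replicates was large and had the same sign for all 8 genes. Replicate 2 was the higher library for 8 of 8 genes in cKO FO, WT MZ and WT FO, and replicate 1 was the higher one for 8 of 8 genes in cKO MZ. Among genes with reads in both replicates, the higher replicate of Hbb-bs was 24.0 times the lower in cKO MZ, 25.7 times in cKO FO, 3.82 times in WT MZ and 11.3 times in WT FO. The same ratio for Klf1 was 5.80, 1.62, 1.48 and 1.67. In group means, Hbb-bs was 3812 ± 4959 (SD, n = 2) in cKO MZ, 284.4 ± 372.1 in cKO FO, 69.7 ± 57.7 in WT MZ and 43.0 ± 50.9 in WT FO, so the SD was larger than the mean in 3 of the 4 groups.

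Summed over the 8 genes, the level was 14286 and 840.4 normalized counts in cKO MZ, 100.8 and 1097 in cKO FO, 103.1 and 363.2 in WT MZ, and 34.9 and 216.0 in WT FO. As a share of the reads on genes this was 0.0641% in cKO MZ replicate 1 (95% Wilson interval 0.0630% to 0.0651%), 0.00459% in cKO FO replicate 2 (0.00433% to 0.00487%) and 0.00367% in cKO MZ replicate 2 (0.00343% to 0.00393%). The lowest share was 0.000143% in WT FO replicate 1 (0.000103% to 0.000199%), which rests on 35 reads. These intervals cover counting error only. They did not overlap between cKO FO replicate 2 and cKO MZ replicate 2, so the order of the second and the third library is larger than counting error, while neighbouring libraries such as WT MZ replicate 1 (0.000435%) and cKO FO replicate 1 (0.000418%) were within it. The 4 globin genes made up 85.7% of these reads in cKO MZ replicate 1 and 54.3% of them in WT FO replicate 1.

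Per kilobase of exon, the order of the genes in cKO MZ replicate 1 was Hbb-bs (9528 normalized counts per kilobase), Hbb-bt (2833), Hba-a1 (2179), Hba-a2 (1744), Alas2 (337.2), Slc4a1 (226.8), Klf1 (39.1) and Rhag (27.7). In cKO MZ replicate 2 Hbb-bt came first, with 416.6 per kilobase against 397.4 for Hbb-bs. In WT FO replicate 1, the library with the lowest sum, Klf1 had 5.22 per kilobase against 9.10 for Hbb-bs, and Slc4a1 had 0.204.

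The mix of the 2 beta globin RNAs differed between libraries. Hbb-bs made up 78.6% of the reads on Hbb-bs and Hbb-bt in cKO MZ replicate 1 (95% Wilson interval 77.8% to 79.4%) and 73.7% in cKO FO replicate 2 (70.4% to 76.8%). It made up 65.4% in WT FO replicate 2 (56.7% to 73.1%), 51.7% and 49.4% in the WT MZ libraries, 51.0% in cKO MZ replicate 2 (47.0% to 55.1%) and 35.2% in cKO FO replicate 1 (23.8% to 48.5%). Thus the cKO MZ libraries differed from each other beyond counting error, and cKO MZ replicate 2 lay at the level of the WT MZ libraries. The alpha genes took 24.0% of the reads of the 4 globin genes in cKO MZ replicate 1 (23.2% to 24.7%) and between 18.7% and 26.6% in the other libraries. Their share was 18.7% in cKO MZ replicate 2 (16.0% to 21.7%) and 20.2% in cKO FO replicate 2 (17.75% to 22.93%). Both lay below cKO MZ replicate 1 beyond counting error. Klf1 had 0.811% of the summed reads on Klf1 and Hbb-bs in cKO MZ replicate 1 (0.630% to 1.04%), 3.20% in cKO FO replicate 2, 3.27% in cKO MZ replicate 2, 8.27% in WT MZ replicate 2 and 53.3% in WT FO replicate 1 (30.1% to 75.2%).

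**Figure D2:**
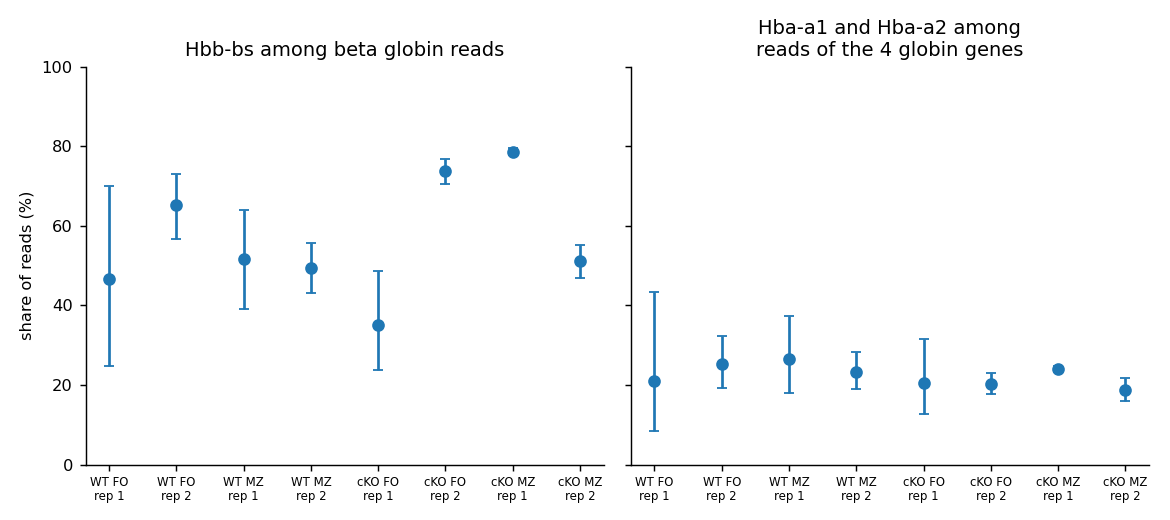
Share of reads in percent, with 95% Wilson intervals as bars, for Hbb-bs among the reads of Hbb-bs and Hbb-bt (left) and for the 2 alpha globin genes among the reads of the 4 globin genes (right), in the 8 libraries. The left share runs from 35.2% to 78.6%, and the right one from 18.7% to 26.6%.

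These shares depend on how reads from near-identical copies were assigned, which the sources used here do not give. Of the 579 windows of 50 bases (the read length) in the GENCODE transcripts of Hbb-bs, 381 (65.8%) also occur in Hbb-bt, and of the 650 windows of Hba-a1, 439 (67.5%) also occur in Hba-a2. The split between the copies of a pair is therefore uncertain, and how the sum of a pair is affected was not tested.

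The design asks whether deletion of Gtf2i changes the RNA of FO and MZ B cells. In MZ B cells the 8 listed genes were higher in both cKO libraries than in both WT libraries, for 8 of 8 genes. This ordering was found for 15.8% of the 14761 genes tested, and since the genes were chosen on these values nothing is read from the count. The log2 difference between cKO and WT, in a limma fit of log2(normalized count + 1) over the 8 libraries, ran from 1.51 (standard error 0.77) for Klf1 to 4.70 (standard error 1.94) for Hbb-bs among the 7 genes other than Rhag. Without cKO MZ replicate 1 the same differences ran from 0.30 (standard error 0.61) for Klf1 to 2.41 (standard error 2.07) for Hbb-bs. The median of the 8 genes was 3.82 with the library (3.89 without Rhag) and 1.85 without the library, against -0.01 over all genes tested. The summed level was 32.4 times as high in cKO as in WT MZ, 61.3 times without cKO MZ replicate 2 and 3.61 times without cKO MZ replicate 1.

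By limma, with calls needing a change of 1.5-fold or more and a p of 0.05 or less after Benjamini-Hochberg adjustment, 0 of the 8 genes were called between cKO and WT MZ, where 0.0339% of all genes were. At an unadjusted p under 0.05 there were 5 of the 8, against 596 of the 14761 genes, and without cKO MZ replicate 1 there were 0 of the 8, against 391. With that library but leaving out Rhag, which passed the filter through it alone, 4 of 7 genes had an unadjusted limma p under 0.05. DESeq2 and edgeR on the recovered reads also called 0 of the 8.

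In FO B cells the groups overlapped for 7 of the 8 genes. Rhag, with 1 read in WT FO replicate 2, 1 in cKO FO replicate 1 and none in WT FO replicate 1, was the exception, at 1 of 8 against 10.9% of all genes. The log2 difference between cKO and WT ran from 0.43 (standard error 0.77) for Klf1 to 2.67 (standard error 1.80) for Hba-a2 among the 7 genes other than Rhag, and the median of the 8 was 1.71 against -0.01 over all genes tested. The summed level was 4.77 times as high in cKO as in WT FO, but 0.803 times without cKO FO replicate 2, so its direction rests on that library. Limma called 0 of the 8 genes, where 0.0677% of all genes were called, and at the unadjusted level of 0.05 the count was 0 of 8 beside 382 in the whole table. DESeq2 and edgeR called 0 of the 8 as well.

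**Figure D3:**
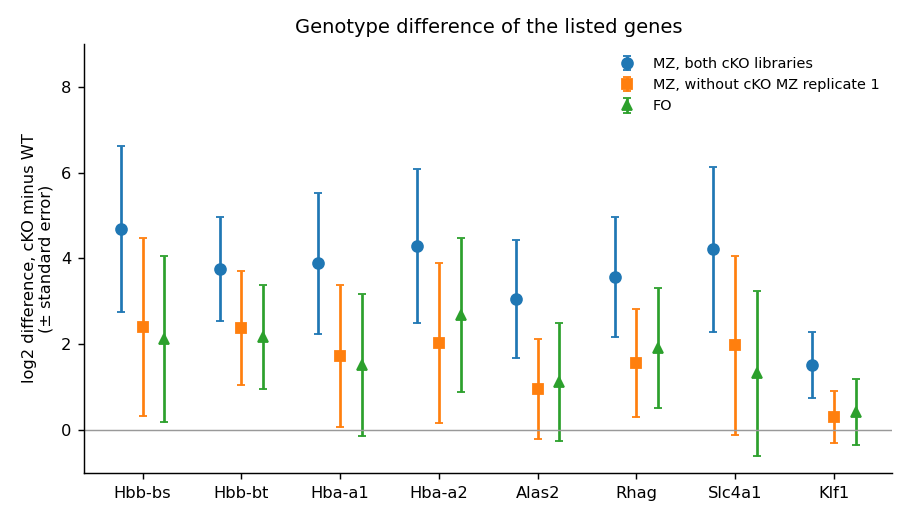
Log2 difference between cKO and WT (cKO minus WT, on log2(normalized count + 1)) with its standard error for the 8 listed genes, in MZ B cells with both cKO libraries (circles), in MZ B cells without cKO MZ replicate 1 (squares) and in FO B cells (triangles). Leaving out the library lowers Hbb-bs from 4.70 to 2.41, and the values of Rhag depend on the pseudocount because each WT group holds 1 read.

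With both subsets fitted together, limma called 0 of the 8 genes where 0.108% of all genes were called, and DESeq2 and edgeR called 0. At an unadjusted p under 0.05 there were 4 of the 8 (3 of the 7 other than Rhag), against 978 of all genes. The median log2 difference of the 8 was 2.76, and 1.69 without cKO MZ replicate 1. The interaction of genotype and subset was called by limma for 0 of the 8, with 0 at an unadjusted p under 0.05, and for 0% of all genes, of which 94 had an unadjusted p under 0.05. The median interaction of the 8 genes was 1.79 on the log2 scale with cKO MZ replicate 1 and 0.03 without it, when 4 of the 8 were above 0. DESeq2 and edgeR called 0 of the 8 for the interaction.

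Between FO and MZ B cells of WT mice the listed genes overlapped for 8 of 8 genes. The summed level in WT FO was 0.538 times that in WT MZ and 1.22 times without WT MZ replicate 2, so that it has no stable direction. In cKO mice the summed level in FO was 0.0792 times that in MZ and 0.713 times without cKO MZ replicate 1. Hbb-bt was the single gene lower in both cKO FO libraries than in both cKO MZ libraries, at 1 of 8 against 32.0% of all genes. Limma called 0 of the 8 in either genotype, where 12.0% of all genes were called in WT and 13.7% in cKO, and DESeq2 and edgeR called 0 of the 8 in both. At an unadjusted p under 0.05 there were 0 of the 8 in WT, against 4469 of all genes, and 1 in cKO, against 4933 (0 and 3396 without cKO MZ replicate 1).

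Other erythroid genes were followed in 5 lists with 71 genes, of which 62 were in the table and 51 passed the filter on low levels. Of the genes tested, 13 of 15 red cell membrane genes and 5 of 10 erythroid regulators had their highest level in cKO MZ replicate 1. So did 6 of 14 genes of heme synthesis and iron and 5 of 12 red cell enzymes and maturation genes, against 13.1% of all genes. Over the genes tested, the median ratio of cKO MZ replicate 1 to the median of the other 7 libraries was 15.3 for 15 membrane genes, 2.95 for 10 regulators, 1.35 for 12 red cell enzymes and maturation genes and 1.17 for 14 genes of heme synthesis and iron, against 0.999 over all genes tested. Of the 15 membrane genes 12 were more than 3-fold above each other library, of the regulators 4, of the enzymes 2 and of the heme genes 0, where 0.332% of all genes were. The filter matters here, since 8 of the 15 membrane genes, 7 of the 10 regulators, 11 of the 12 enzymes and 14 of the 14 heme genes would have passed it without that library.

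Among the membrane genes, Kel, the carrier of the Kell blood group, had a ratio of 53.6 and passed the filter through cKO MZ replicate 1 alone. It had 110.6 and 2.06 normalized counts in cKO MZ, 2.24 and 4.03 in cKO FO, 0 and 4.53 in WT MZ, and 0 and 1.90 in WT FO, so that cKO MZ replicate 2 lay within the range of the WT libraries. The lowest ratios were those of Epb41 (0.730), Gypc (1.75) and Ank1 (4.38). In cKO MZ replicate 1 Gypc had 866.1, below the 903.4 to 1027 of the other MZ libraries. Epb41 had 3383 there, within the 3008 to 3539 of the other MZ libraries. Epb41 (protein 4.1) and Gypc (glycophorin C) had means of 4234 and 703.5 normalized counts, far above those of the globins in most libraries.

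Among the regulators, Trim10, with 148.5 normalized counts in cKO MZ replicate 1, had the highest ratio, 54.7, followed by Tal1 (29.3) and Hemgn (11.2). Trim10 and Tal1 passed the filter through that library alone. Trim10 had 2.06 in cKO MZ replicate 2, within the range of the WT libraries. Gata1, the X-linked master regulator of erythroid cells, had a mean of 8.46 and was under the filter, with 37.9 in cKO MZ replicate 1 and at most 11.1 elsewhere. The lowest ratios were those of Lmo2 (0.488), Bcl11a (0.896) and Ldb1 (0.971), regulators that B cells also use, with means between 4764 and 9003. Lmo2 had 2786 in cKO MZ replicate 1, within the 2451 to 3043 of the other MZ libraries.

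Among the enzymes Car1, which encodes carbonic anhydrase 1, had a ratio of 7.15 and Car2 one of 2.95. Cat (0.875), Blvrb (0.778) and Bnip3l (0.953) had the lowest. In the heme list the lowest ratio was 0.692, for Tfrc, the transferrin receptor, and Slc25a38 (0.822), Slc25a37 (1.01), Alad (1.48) and Tfr2 (1.54) lay above it. Of the 13 other globin genes 5 were in the table and 0 passed the filter. The embryonic globin Hbb-bh1 lay between 1.12 and 9.96, Hbb-y had 1.03 in cKO MZ replicate 2 and 0 in the other 7 libraries, and Hbq1b had 5.98 in cKO MZ replicate 1 and 0 in the other 7.

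**Figure D4:**
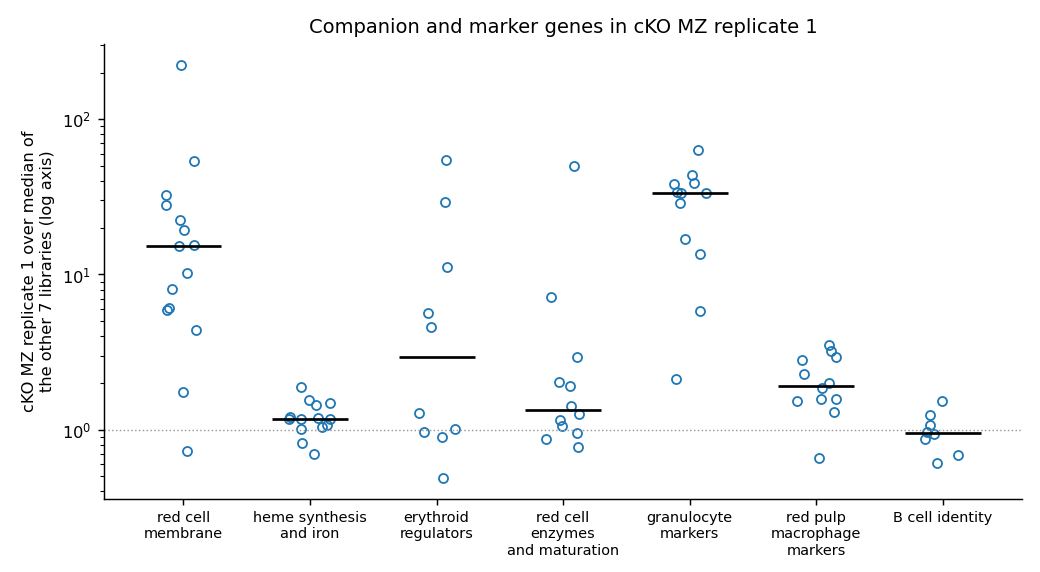
Ratio of the level in cKO MZ replicate 1 to the median of the other 7 libraries (log axis) for the genes of 7 lists that passed the filter, with each circle a gene, the bar the median of the list and the dotted line a ratio of 1. The medians are 15.3 for red cell membrane genes, 1.17 for heme synthesis and iron, and 33.4 for granulocyte markers, of which 5 of 12 pass the filter without that library.

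The comparisons of the companion genes were tested over all 14761 genes by limma. Some of the 51 passed the filter through cKO MZ replicate 1 alone, as only 8 of the 15 membrane genes passed without it. Nothing is therefore read from their counts at an unadjusted p under 0.05 in comparisons that use that library. Between cKO and WT MZ, 0 of the 51 were called and the median log2 difference was 0.34 (0.04 without cKO MZ replicate 1). It was 2.39 for the membrane genes (0.82 without that library) and 0.44 for the regulators (-0.04). For the enzymes it was 0.18 (0.06) and for heme synthesis and iron 0.06 (-0.02). At an unadjusted p under 0.05 there were 11 of the 51, against 596 of all genes, and without cKO MZ replicate 1 there were 0, against 391. edgeR called 0, and DESeq2 called 1, Aqp1, the water channel of red cells, which had 5.78 and 13.6 normalized counts in WT MZ and 189.4 and 28.9 in cKO MZ (log2 fold change 3.49, standard error 0.89, DESeq2 adjusted p = 0.0334, higher in 2 of 2 cKO libraries). DESeq2 called 0.300% of all genes in that comparison. It was not run without cKO MZ replicate 1, so how far the call of Aqp1 rests on that library was not tested. Between cKO and WT FO, 0 of the 51 were called by limma, DESeq2 and edgeR, with 0 at an unadjusted p under 0.05. For the genotypes over both subsets the limma count was 0, and 6 of the 51 reached an unadjusted p under 0.05 (2 without cKO MZ replicate 1) beside 978 in the whole table. For the interaction it was 0, with 2 (0 without that library) against 94 of all genes, and both other tools called 0. For 3 of the 51, Tspan33, Car1 and Ppox, both cKO libraries lay above both WT libraries in MZ and below them in FO B cells, where 0.928% of all genes did.

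Between FO and MZ B cells of WT mice 5 of the 51 companion genes were called, where 12.0% of all genes were, a share near the background. On the log2 scale Lmo2 was higher in FO by 1.37 (limma adjusted p = 0.000986, standard error 0.15), as were Blvrb (0.88), Tfrc (0.76) and Epb41 (0.68), and Gypc was lower by -1.10 (standard error 0.15, limma adjusted p = 0.00265). Gypc had normalized counts of 903.4 and 1004 in WT MZ and of 401.2 and 491.9 in WT FO, with no overlap. Without WT FO replicate 1 the count fell from 5 to 2. Car2, carbonic anhydrase 2, had 413.1 and 427.2 in WT FO against 47.2 and 86.9 in WT MZ but 710.7 in cKO MZ replicate 1. Its log2 difference of 2.69 in WT mice missed the threshold in the fit with that library (limma adjusted p = 0.0857) and passed it in the fit without it (limma adjusted p = 0.00509).

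In cKO mice 9 of the 51 were called between FO and MZ, where 13.7% of all genes were. Lmo2 (1.16), Blvrb (0.78), Tfrc (0.75) and Epb41 (0.59) were higher in FO on the log2 scale, and 5 were lower, among them Gypc (-1.02), Ank1 (-1.69), Add2 (-3.09) and Tspan33 (-3.21). Add2 and Tspan33 passed the filter through cKO MZ replicate 1 alone. Without cKO MZ replicate 1 limma called 3, namely Lmo2, Gypc and Car2. The count was also 3 without either cKO FO library and 15 without cKO MZ replicate 2.

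Markers of other blood cells moved with the listed genes in part. The summed level of 20 granulocyte markers was 2280 normalized counts in cKO MZ replicate 1 and between 71.7 and 159.8 in the other 7 libraries, and 11 of the 12 that passed the filter were more than 3-fold above each other library. Of those 12, 5 would have passed the filter without that library. The granulocyte genes S100a9 and S100a8 had 604.0 and 413.6 there, against at most 27.8 and 21.0 elsewhere, and Mpo and Elane, genes of granulocyte precursors, had 148.5 and 65.8. Ly6g, the surface marker of mature neutrophils, had 2.99 in that library, 1.03 in cKO MZ replicate 2 and 0 in the other 6. In cKO FO replicate 2, second for most listed genes, the granulocyte sum was 117.8. Their part in the result was not tested.

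The sums of the other lists differed from this pattern. Red pulp macrophage markers summed to 2266 in cKO MZ replicate 1 but also to 2196 in WT MZ replicate 2 and 1805 in cKO MZ replicate 2, and the lowest sum was 821.3 in WT FO replicate 1. Platelet markers summed to 755.5 in cKO MZ replicate 1, within the range of 595.0 to 1580 of the other libraries, and Pf4 had at most 2.99 in any library. Most of that sum was Itgb3, with 562.1 there, 434.1 to 508.1 in the other MZ libraries and 949.2 to 1344 in the FO libraries. Of the 11 platelet markers measured, 5 were highest in cKO MZ replicate 1. Of these 5, 0 passed the filter, and none had more than 9.97 there. T and NK cell markers summed to 188.4, within the range of 82.5 to 225.5. Proliferation genes summed to 7828 in cKO MZ replicate 1 and 9454 in WT MZ replicate 2, against 956.2 to 3674 in the other 6 libraries. The 8 B cell identity genes summed to 246633 in cKO MZ replicate 1, within the range of 211941 to 299815 of the others. Cr2 (CD21) had 86953 and Fcer2a (CD23) 6245 in cKO MZ replicate 1, on the side of the other MZ libraries (at least 88275 and at most 6708) and away from the FO libraries (at most 26803 and at least 24802).

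**Figure D5:**
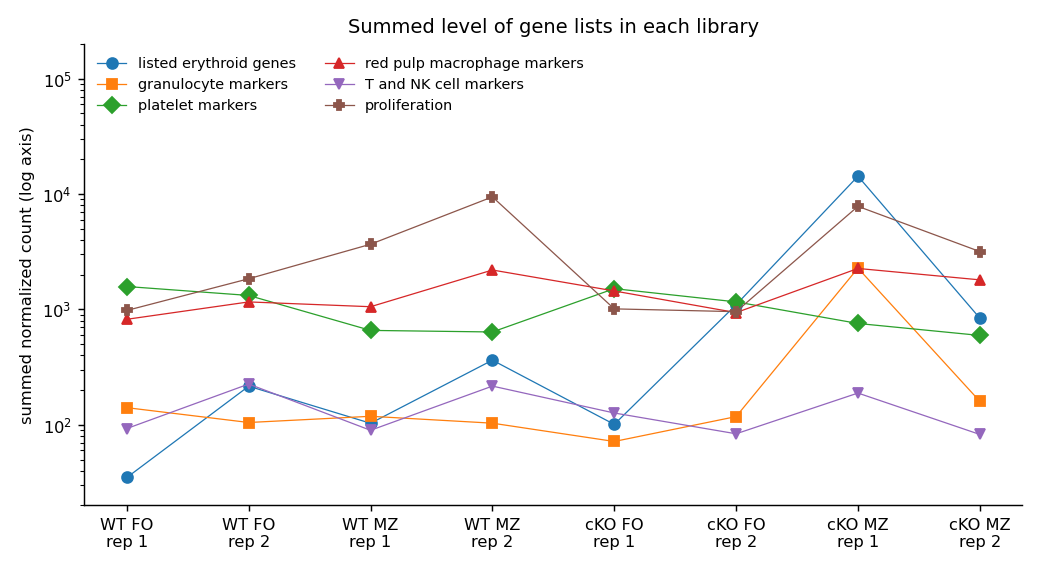
Summed normalized count (log axis) of the listed erythroid genes and of 5 marker lists in the 8 libraries, with lines joining the points of a list for reading only. The listed genes (14286) and the granulocyte markers (2280) peak in cKO MZ replicate 1, whereas macrophage, platelet, T and NK cell and proliferation sums there lie within or close to the range of the other libraries.

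In cKO MZ replicate 1, 49 of the 14761 genes were more than 3-fold above each other library. Of these 8 were listed genes, 12 membrane genes, 11 granulocyte markers, 4 regulators and 2 enzymes, and 12 were on no list. In cKO MZ replicate 2, 46 genes stood apart in the same way, WT MZ replicates 1 and 2 had 7 and 3 such genes and the FO libraries 0. The highest level of all libraries was found in cKO MZ replicate 1 for 13.1% of all genes tested and for 8 of the 8 listed ones.

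Among the 8 genes nearest to Hbb-bs, by the root mean square difference of log2(normalized count + 1) centred on its mean over the 8 libraries, were Apol11b (1.32), Kel (1.43), Aqp1 (1.503), Trim10 (1.60) and Gda (1.62), leaving the listed genes aside. The median over all genes tested was 2.91. Of these 8, 6 were on the companion lists. With the listed genes included, Slc4a1 ranked 1, Hba-a2 2, Hba-a1 3, Hbb-bt 4, Alas2 6 and Rhag 7, whereas Klf1 ranked 50. The likeness rests on 8 libraries and mostly on cKO MZ replicate 1.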

How the data were processed

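RNA of 8 libraries was analysed, and the 8 ATAC-seq samples were not analysed here. Per the labels and the study's methods, total RNA was depleted of ribosomal RNA, read as single 50-base ends, aligned with HISAT2 to mm10, counted on genes with featureCounts and HTSeq and normalized with DESeq2, with versions not given in the sources used here. The authors deposited the signal as normalized counts, each a whole number of reads divided by a size factor. After 256343 blank lines were left out, reads were recovered for 100% of the values of 27928 genes (tolerance 0.01 reads). The libraries held 21546552 to 25083552 reads, and both the 2 libraries a group and the few reads on some listed genes limit precision.

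Log2(normalized count + 1) of the 14761 genes with a mean of at least 10 entered limma 3.58.1 under R 4.3.3 (lmFit, then eBayes with a trend), with the 4 groups in a single fit. Calls needed a change of 1.5-fold or more and a p of 0.05 or less after Benjamini-Hochberg adjustment over all genes, and the pseudocount lowers the fold changes of genes with few reads. DESeq2 1.42.0 and edgeR 4.0.16 were run on the recovered reads and called 48 and 4 genes between cKO and WT MZ. On simulated counts for that comparison, over 14761 genes, limma called 80 of 100 genes changed 4-fold and 45 of 100 changed 2-fold, besides 13 unchanged genes. The changed genes were drawn at random from all genes tested. These shares therefore do not give the power for genes with the spread of the listed ones. The listed genes and the companion and marker lists were chosen with earlier results of these data known. Named companion genes are those with the 3 highest and 3 lowest ratios of a list and those called, and the 8 genes nearest to Hbb-bs were taken by root mean square difference. Some genes that these rules name are not reported here. Gata1, Hbb-bh1, Hbb-y, Car2 and the genes of the closing section were named after seeing their values. Gene spans are from GENCODE M21 on GRCm38, and promoter windows from RefSeq.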

Additional observations from a re-analysis of the deposited data

Results flagged for a closer look

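For 3 of the 51 companion genes, named for this pattern, both cKO libraries lay above both WT libraries in MZ B cells and below them in FO B cells, as did 0.928% of all genes tested. Tspan33, from the list of red cell membrane genes, had 76.7 and 13.4 normalized counts in cKO MZ against 1.93 and 9.96 in WT MZ. In FO B cells it had 2.24 and 3.02 in cKO against 3.99 and 4.76 in WT, only a few reads in each library. Its genotype difference in MZ minus that in FO was 3.13 on the log2 scale (limma adjusted p = 1, unadjusted p = 0.0432) and 1.92 without cKO MZ replicate 1 (limma adjusted p = 1), the library through which Tspan33 passed the filter. For Car1 the same difference was 2.89 (limma adjusted p = 1, unadjusted p = 0.0314; 1.84 without that library), with 135.6 and 30.9 in cKO MZ against 5.78 and 21.7 in WT MZ. For Ppox, an enzyme of heme synthesis, the log2 differences were 0.04 in MZ and -0.10 in FO, and that between them was 0.14 (limma adjusted p = 1, unadjusted p = 0.294; 0.12 without that library). The interaction did not pass the threshold for any of the 3, with or without that library.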

How the results depend on the processing

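The counts of listed genes called were 0 in the 6 comparisons by limma and stayed at 0 under a pseudocount of 0.5, no filter, quantile normalization, TMM scaling, DESeq2, edgeR, no fold cutoff and, where run, a fit of the 4 libraries compared. Leaving out libraries gave 0 to 1 between FO and MZ in cKO mice. Companion genes called between cKO and WT MZ were 0 by limma and 1 by DESeq2. Between FO and MZ in cKO mice they were 9, with 4 under no filter, 4 under quantile normalization, 20 by DESeq2 and 3 to 15 with a library left out, and in WT mice 5, with 2 to 6 with a library left out. The cause of these moves was not tested.

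With the replicate number as a block, companion calls between FO and MZ were 5 in WT and 9 in cKO mice and 0 in the other comparisons, and listed calls were 0. Replicate numbers are shared by the labels without a stated pairing, and the correlation of same-numbered deviations was 0.591 between WT FO and WT MZ and -0.296 between WT MZ and cKO MZ. A block with the cKO MZ numbers exchanged, chosen after seeing the data, called 2 listed and 0 companion genes between cKO and WT MZ, and 12 genes in all.

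The ratio of summed levels, with a library left out, ran from 3.61 to 73.4 for cKO over WT MZ, from 0.803 to 17.1 for cKO over WT FO, from 0.150 to 1.22 for FO over MZ in WT and from 0.0133 to 0.713 for FO over MZ in cKO mice. Levels of the listed genes scaled by total reads or by TMM moved by less than the spread between replicates. Over all genes, calls between cKO and WT rose from 5 to 48 in MZ, from 10 to 24 in FO and from 16 to 71 over both subsets with DESeq2, and a fit of 4 libraries gave 4 in FO and 1014 (against 1776) between FO and MZ in WT mice. In a comparison of 2 libraries against 2, no exact permutation test of a single gene can fall below 0.05.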

Other observations

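Ctse, which encodes cathepsin E and was on the list of red cell enzymes, did not follow the globins. It had 691.7 and 545.5 normalized counts in cKO MZ, 421.0 and 434.8 in cKO FO, 3031 and 649.3 in WT MZ, and 5048 and 533.7 in WT FO, so that replicate 1 of both WT groups was far above the other 6 libraries. Tent5c, on the same list, had 1069 and 1213 in cKO MZ, 526.2 and 224.5 in cKO FO, 1922 and 344.1 in WT MZ, and 536.9 and 120.8 in WT FO, with replicate 1 above replicate 2 in both WT groups. In those groups the listed erythroid genes were higher in replicate 2.

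Of the 12 genes on no list that were more than 3-fold above each other library in cKO MZ replicate 1, the highest was Gm4734, with 707.7 normalized counts there and at most 4.48 elsewhere. Prg2, which encodes the major basic protein of eosinophil granules, had 65.8 there and at most 19.1 elsewhere. Hp, which encodes haptoglobin, the plasma protein that binds free hemoglobin, had 61.8 there and at most 19.0 elsewhere. Tspo2, which encodes an erythroid transport protein, had 54.8 there and at most 8.56 elsewhere.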
